A study of Mus musculus with 7 samples.

Results

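The unfolded protein response and the integrated stress response are described here through 34 genes, chosen by name from what is known of these pathways: the endoplasmic reticulum (ER) stress sensors, the transcription factors and feedback regulators downstream of them, ER chaperones and folding enzymes, ER-associated degradation genes, and metabolic targets of ATF4. The choice was made with earlier results of these data known. All 34 were present among the 35976 gene symbols of the count table and all 34 passed the low-count filter that left 14412 genes for testing. The 7 RNA-seq libraries came from the amygdala of male C57BL/6J mice that received an AAV carrying a guide RNA against the nuclear receptor gene Nr2f2 (sgNr2f2, 3 libraries) or against Rosa as the control guide (sgRosa, 4 libraries). Cas9 was driven by the Hsyn promoter, a neuronal promoter. Every mouse, controls included, was restrained in a tube on 7 days, fear conditioned on 1 day and given extinction sessions on 3 days, so the comparison is between guides in stressed animals and holds no unstressed group. The cells were isolated from papain-digested tissue with a magnetic neuron isolation kit, and libraries were made from 5 ng of total RNA. Whether a library stands for 1 animal or for a pool is not stated, so the p-values cover only library-to-library spread, which may be technical. The question the design poses for these genes is whether their transcript levels differed between sgNr2f2 and sgRosa.

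When unfolded proteins accumulate in the ER lumen, the chaperone BiP (encoded by Hspa5) leaves the sensors IRE1 alpha (Ern1), PERK (Eif2ak3) and ATF6 (Atf6). IRE1 alpha splices the mRNA of Xbp1, ATF6 is cleaved to an active transcription factor, and PERK phosphorylates the translation factor eIF2 alpha, which lowers general protein synthesis while favouring translation of ATF4. The last step is shared with other eIF2 alpha kinases that sense amino acid shortage, haem or double-stranded RNA, which is why it is called the integrated stress response. In neurons the eIF2 alpha branch is also known for its part in synaptic plasticity and memory. Gene-level counts report total transcript, so Xbp1 splicing, ATF6 cleavage and ATF4 translation were not measured.

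The promoter elements through which these branches act are shown first, because they divide the members into those with and without a letter match to each element. RefSeq promoter windows (GRCm38.p6, 250 bases before to 50 bases after the start of the gene) matched 32 of the 34 members. The ER stress response element ERSE, searched as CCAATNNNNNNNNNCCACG on both strands, was present in 8 of the 32 (25%) and in 37 of 27025 genes (0.137%). The 8 were Hspa5, Hsp90b1, Calr, Canx, Dnajc3, Pdia6, Creld2 and Syvn1, that is 7 chaperone or folding genes and the ubiquitin ligase gene Syvn1. Hsp90b1 held 2 ERSE matches. Windows of 59 bases around 4 of these matches follow, read in the direction of each gene, with the 2 fixed blocks of the element in capitals. Hspa5 is shown as the standard reporter gene of the response, Syvn1 as the ERSE gene with the highest fold change, and Calr and Creld2 as ERSE genes that stood high in 1 control library.
Hspa5 ERSE, chr2:34772005-34772063: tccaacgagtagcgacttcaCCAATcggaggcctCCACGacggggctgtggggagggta
Syvn1 ERSE, chr19:6046512-6046570: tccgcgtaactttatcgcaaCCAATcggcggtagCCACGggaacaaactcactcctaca
Calr ERSE, chr8:84847055-84847113: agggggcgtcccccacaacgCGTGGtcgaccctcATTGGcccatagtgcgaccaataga
Creld2 ERSE, chr15:88819500-88819558: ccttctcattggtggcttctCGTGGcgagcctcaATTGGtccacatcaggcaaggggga
The Hspa5 match began 65 bases and the Syvn1 match 44 bases before the RefSeq start of the gene. The Calr and Creld2 matches lay on the strand opposite to the gene and therefore read CGTGG, 9 bases and ATTGG. ERSE-II, searched as ATTGGNCCACG, was found in Herpud1 alone among the members and in 12 of 27025 genes (0.0444%). The unfolded protein response element TGACGTGG was in none of the 32 windows and in 193 of 27025 (0.714%). The amino acid response core TGATGNAA, to which ATF4 with a C/EBP partner is known to bind, was found in 6 of 32 (18.8%) and in 1219 of 27025 (4.51%): Asns, Atf3, Chac1, Herpud1, Slc7a11 and Trib3. The ERSE-II of Herpud1 and the cores of Asns, Chac1 and Atf3 are given as examples from the degradation, metabolic and transcription factor groups.
Herpud1 ERSE-II, chr8:94386357-94386407: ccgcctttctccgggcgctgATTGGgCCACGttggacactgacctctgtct
Asns TGATGNAA core, chr6:7693210-7693252: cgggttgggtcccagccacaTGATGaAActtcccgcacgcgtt
Chac1 TGATGNAA core, chr2:119351029-119351076: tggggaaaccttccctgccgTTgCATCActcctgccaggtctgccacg
Atf3 TGATGNAA core, chr1:191183416-191183463: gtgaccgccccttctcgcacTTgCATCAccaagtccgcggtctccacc
These windows too are read in the direction of each gene. The Asns core reads TGATGaAA in that direction, whereas those of Chac1 and Atf3 match on the strand opposite to the gene and read TTgCATCA. RefSeq starts can differ from GENCODE M21 starts: of the matches shown, those of Hspa5, Asns and Atf3 lie within the GENCODE spans of their genes. These are letter matches in a short window and not measured binding sites.

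Depth, composition and 1 library that stood apart set the background for the values. Libraries held 6266897 to 20928677 counts, with the lowest total in sgRosa replicate 4. Its log2 levels had a mean Pearson correlation across genes with the other 6 libraries of 0.72, against 0.88 to 0.90 for the rest, and held the highest value of 32.6% and the lowest value of 35.9% of all genes tested. Although the labels give neurons, the 10 neuron markers, all detected in every library, summed to 0.0380% to 0.169% of counts in sgRosa and 0.0418% to 0.0511% in sgNr2f2. The 10 oligodendrocyte markers, also detected in every library, summed to 2.69% to 29.4% in sgRosa and 17.9% to 32.2% in sgNr2f2, with the lowest share in sgRosa replicate 4 (exact permutation test over the 35 splits, two-sided p = 0.371, smallest possible 0.0286). The 5 erythroid markers made up 3.70% of counts in sgRosa replicate 4 and 0.0958% to 0.316% elsewhere. In such bulk libraries, fewer cells of a type and less RNA per cell cannot be told apart. The targeted gene, Nr2f2, was read at 422, 305, 166 and 96 counts across sgRosa replicates 1 to 4, and 196, 214 and 191 across sgNr2f2 replicates 1 to 3. Its log2 fold change was −0.36 (SE 0.37, adjusted p = 0.905) and the groups overlapped. A guide-directed cut need not change the transcript level, so this value does not check the edit itself.

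No member differed between sgNr2f2 and sgRosa at an adjusted p (Benjamini-Hochberg over all genes tested) under 0.05 in edgeR's quasi-likelihood test, where the share called among all 14412 genes was also 0%. The smallest adjusted p of a member was 0.868. At an unadjusted p under 0.05, the sensor gene Ern1 and the ubiquitin ligase gene Syvn1 were higher in sgNr2f2, where 2.18% of all genes met that rule, and the transcription factor gene Atf3 was lower, where 2.82% did. The same 3 genes were the only members whose values did not overlap between groups, 8.82% of the 34 beside 8.32% of all genes (4.43% higher and 3.89% lower). That share is near the background. The log2 fold change was above 0 for 17 members and below 0 for the other 17, beside 43.8% of all genes above 0. Fold changes ran from −2.54 (Slc7a11) to 1.35 (Ern1), with a median of 0.0016, beside a median of −0.11 over all genes. Scaling to library size alone, without TMM factors, moved that median of all genes to −0.33 and left 10 members above 0. Across the 4 control libraries the members' median coefficient of variation was 45.7%, and the median over all genes was 52.5%. DESeq2 and limma-voom called no member either, with 0.0486% of all genes called by DESeq2. When 1 library at a time was left out, Ern1 kept an unadjusted p under 0.05 in 2 of 7 fits (0.0283 to 0.153), Syvn1 in 2 of 7 (0.0113 to 0.131) and Atf3 in 4 of 7 (0.00977 to 0.132). The highest p came without sgNr2f2 replicate 2 for Ern1, replicate 1 for Syvn1 and replicate 3 for Atf3.

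**Figure D1:**
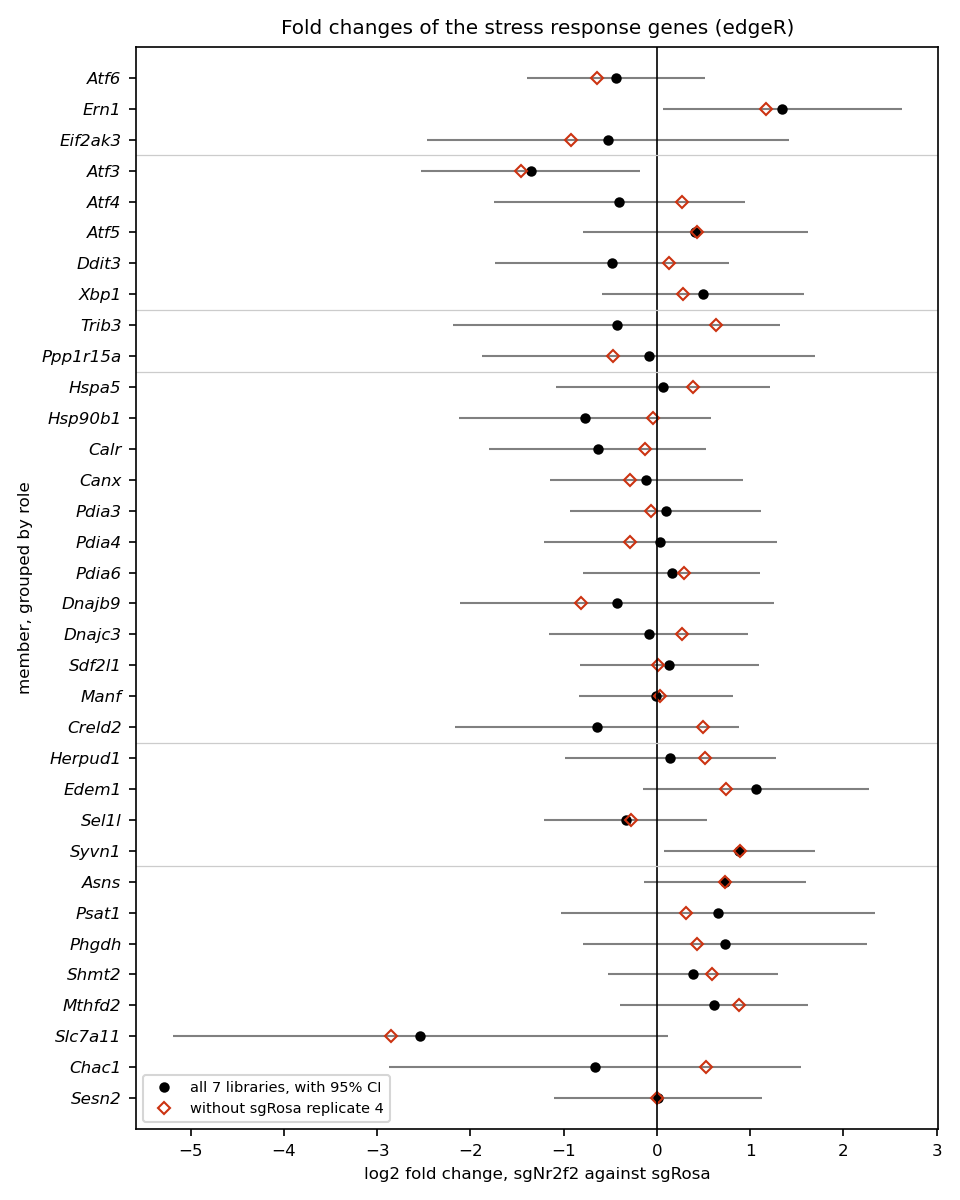
The plot of fold changes gives each member's log2 fold change (x axis, sgNr2f2 over sgRosa, edgeR) with its 95% confidence interval, ordered within 6 role groups. The intervals of Ern1 and Syvn1 lie above 0 and that of Atf3 below 0, before adjustment for multiple testing, and the other 31 intervals cross 0.

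Among the 3 sensor genes, Ern1 had the higher level in sgNr2f2 while Atf6 and Eif2ak3 had overlapping groups. Ern1 encodes IRE1 alpha, the kinase and endoribonuclease that splices Xbp1 mRNA, and lies at chr11:106394650-106487852, minus strand (GRCm38, GENCODE M21). In CPM, which divides counts by the library size after TMM scaling for differences in RNA composition, Ern1 had 1.64, 1.41, 1.90 and 0.816 CPM across sgRosa replicates 1 to 4, and 3.93, 5.15 and 2.06 across sgNr2f2 replicates 1 to 3. Every sgNr2f2 library was above every sgRosa library, and the closest values were 2.06 CPM in sgNr2f2 replicate 3 and 1.90 CPM in sgRosa replicate 3. The counts behind this were low, 35, 26, 28 and 6 counts across sgRosa replicates 1 to 4, and 65, 92 and 34 across sgNr2f2 replicates 1 to 3, and the log2 fold change was 1.35 (SE 0.58, unadjusted p = 0.0411, adjusted p = 0.868). Atf6, which encodes the sensor that is itself cleaved into a transcription factor, had 21.7, 18.3, 13.4 and 8.56 CPM across sgRosa replicates 1 to 4, and 13.9, 8.74 and 11.7 across sgNr2f2 replicates 1 to 3. Its sgNr2f2 libraries lay within the sgRosa range, and the log2 fold change was −0.44 (SE 0.43, adjusted p = 0.904). Eif2ak3, which encodes PERK, had 12.1, 13.4, 9.92 and 0.272 CPM across sgRosa replicates 1 to 4, and 10.3, 2.97 and 5.44 across sgNr2f2 replicates 1 to 3. The value in sgRosa replicate 4 rested on 2 counts, and the log2 fold change was −0.53 (SE 0.87, adjusted p = 0.947). Without that library it was −0.92 in edgeR, −0.90 in DESeq2 and −1.114 in limma-voom, against −0.18 in limma-voom with all libraries. Of these only limma-voom without sgRosa replicate 4 had an unadjusted p under 0.05 (0.0260, adjusted p = 0.398). PERK's gene shares 8.05% of its exon bases with Gm43292 on the opposite strand, and whether reads were counted by strand is not given in the sources used here.

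Of the 5 transcription factor genes, Atf3 was lower in sgNr2f2 without overlap, and Atf4, Ddit3, Atf5 and Xbp1 overlapped. Atf3 (chr1:191170296-191218039, minus strand) encodes a factor induced through ATF4 and also, as an early-response gene, by neuronal activity and injury. Its levels were 389.9, 233, 224 and 202 CPM across sgRosa replicates 1 to 4, and 112, 148 and 48.0 across sgNr2f2 replicates 1 to 3. The highest sgNr2f2 value, 148 CPM, was below the lowest sgRosa value, 202 CPM, and sgRosa replicate 1 stood above the other 3 controls. Group means were 262 ± 86.1 CPM in sgRosa (SD, n = 4) and 103 ± 50.7 CPM in sgNr2f2 (SD, n = 3), with a log2 fold change of −1.35 (SE 0.53, unadjusted p = 0.0282, adjusted p = 0.868). The adjusted p of Atf3 was 0.0507 in DESeq2 without sgRosa replicate 4, the lowest of any member in the 17 alternative fits, in which it ranged up to 1.00.

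Atf4 encodes the central activator of the integrated stress response and is regulated largely at translation. It had 52.9, 40.5, 54.6 and 167 CPM across sgRosa replicates 1 to 4, and 29.8, 93.3 and 55.8 across sgNr2f2 replicates 1 to 3. Except for the high value in sgRosa replicate 4, the controls lay at 40.5 to 54.6 CPM, inside the sgNr2f2 range. The log2 fold change was −0.40 (SE 0.61, adjusted p = 0.938), and 0.27 without that library. Ddit3, which encodes the pro-apoptotic factor CHOP, had 16.8, 30.7, 30.5 and 80.9 CPM across sgRosa replicates 1 to 4, and 31.5, 16.4 and 37.4 across sgNr2f2 replicates 1 to 3. It too was highest in sgRosa replicate 4, and its log2 fold change of −0.48 (SE 0.56, adjusted p = 0.917) turned to 0.13 without it. Mars, on the opposite strand, shares 3.97% of the exon bases of Ddit3. Xbp1, the target of IRE1 alpha splicing, had 167, 105, 97.3 and 56.8 CPM across sgRosa replicates 1 to 4, and 127, 213 and 110.0 across sgNr2f2 replicates 1 to 3. Its lowest value was in sgRosa replicate 4 and its highest in sgNr2f2 replicate 2, and the log2 fold change was 0.49 (SE 0.49, adjusted p = 0.904). Atf5, another translationally controlled factor of the integrated stress response, had 34.2 ± 16.7 CPM in sgRosa (SD, n = 4) and 45.5 ± 23.4 CPM in sgNr2f2 (SD, n = 3) and a log2 fold change of 0.41 (SE 0.54, adjusted p = 0.926).

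**Figure D2:**
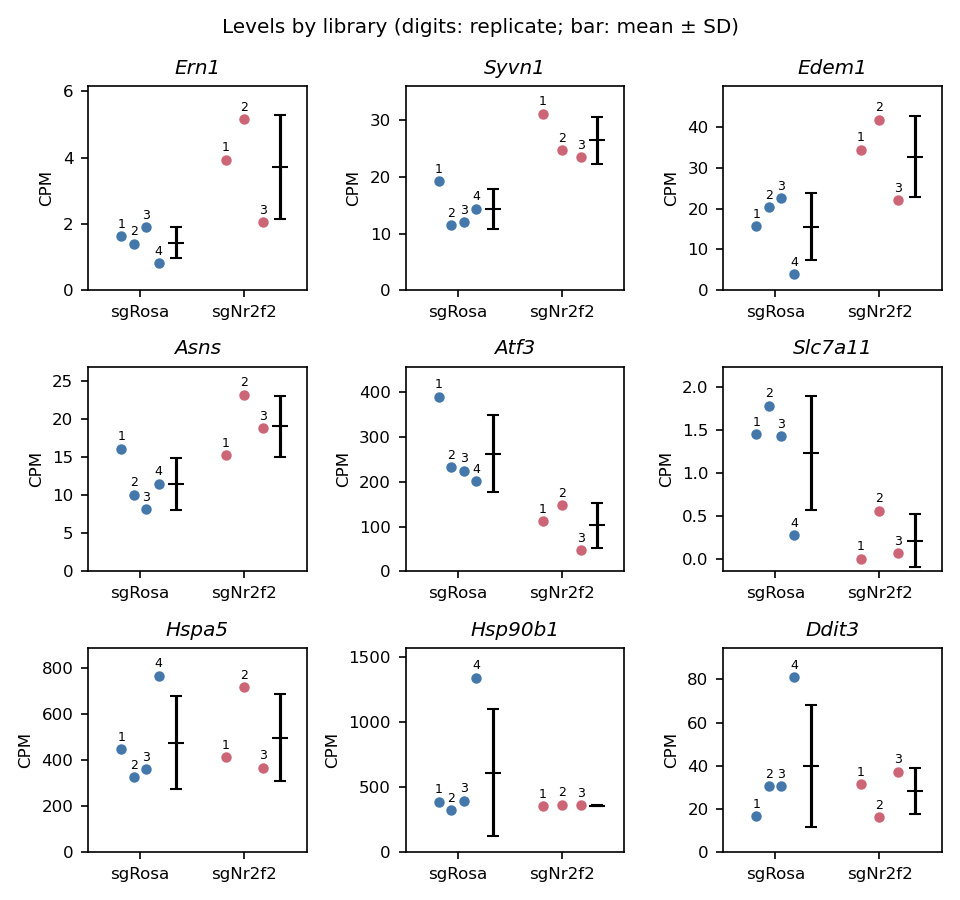
The plot of levels by library shows CPM (y axis, linear) for 9 members in the 4 sgRosa and 3 sgNr2f2 libraries, with points for libraries and lines for the mean ± SD. Ern1 and Syvn1 points are higher and Atf3 points lower in sgNr2f2 without overlap, and in the Hsp90b1 and Ddit3 panels 1 sgRosa point, replicate 4 (1338 and 80.9 CPM), lies above all others.

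The feedback regulators end or temper the response. Ppp1r15a encodes GADD34, the regulatory subunit that directs protein phosphatase 1 to eIF2 alpha, and Trib3 encodes a pseudokinase that binds and represses ATF4. Ppp1r15a had 207, 84.9, 64.2 and 8.84 CPM across sgRosa replicates 1 to 4, and 106, 109 and 43.0 across sgNr2f2 replicates 1 to 3. Both the highest and the lowest value were controls, and the log2 fold change was −0.09 (SE 0.80, adjusted p = 0.992). Trib3 had 5.48, 3.51, 1.97 and 20.1 CPM across sgRosa replicates 1 to 4, and 2.48, 9.63 and 4.96 across sgNr2f2 replicates 1 to 3. Its value in sgRosa replicate 4 exceeded all others, and the log2 fold change of −0.43 (SE 0.79, adjusted p = 0.949) was 0.63 without that library.

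None of the 12 chaperone and folding genes separated the groups: 5 fold changes were above 0 and 7 below, with a median of −0.05 and a range from −0.77 to 0.16. Hspa5 encodes BiP, the main Hsp70 chaperone of the ER lumen and the usual readout of ER stress. It had 448, 326, 362 and 766 CPM across sgRosa replicates 1 to 4, and 411, 714 and 367 across sgNr2f2 replicates 1 to 3. The group means were 475 ± 200.1 CPM in sgRosa (SD, n = 4) and 498 ± 189 CPM in sgNr2f2 (SD, n = 3), and the log2 fold change was 0.06 (SE 0.52, adjusted p = 0.990) with TMM factors, −0.02 with upper-quartile factors and −0.15 with library size alone. The highest values were in sgRosa replicate 4 and sgNr2f2 replicate 2. Hsp90b1, which encodes the ER Hsp90 GRP94, had 388, 325, 396 and 1338 CPM across sgRosa replicates 1 to 4, and 352, 366 and 360.2 across sgNr2f2 replicates 1 to 3. The 3 sgNr2f2 libraries spanned only 352 to 366 CPM and lay inside the control range, so that the log2 fold change of −0.77 (SE 0.61, adjusted p = 0.882) came with a single high control. Without sgRosa replicate 4 the log2 fold change was −0.042 and the control mean was 369.7 CPM. Hsp90b1 shares 10.3% of its exon bases with 1810014B01Rik on the opposite strand. Calr, which encodes the lectin chaperone calreticulin, had 204, 129, 163 and 442 CPM across sgRosa replicates 1 to 4, and 139, 166 and 149 across sgNr2f2 replicates 1 to 3. Again the highest value was in sgRosa replicate 4, and the log2 fold change was −0.63 (SE 0.52, adjusted p = 0.890), or −0.13 without it. Creld2, an ER stress-inducible gene for a protein with disulfide isomerase activity, had 18.3, 15.1, 15.8 and 96.0 CPM across sgRosa replicates 1 to 4, and 23.5, 27.8 and 18.3 across sgNr2f2 replicates 1 to 3. Apart from sgRosa replicate 4, its controls lay at 15.1 to 18.3 CPM, below or level with the sgNr2f2 libraries. The log2 fold change was −0.64 (SE 0.69, adjusted p = 0.909) with all libraries and 0.50 without that one.

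The remaining chaperone genes had overlapping groups. Canx, which encodes the membrane-bound lectin chaperone calnexin, had 523 ± 145 CPM in sgRosa (SD, n = 4) and 484 ± 49.7 CPM in sgNr2f2 (SD, n = 3). The protein disulfide isomerase genes Pdia3, Pdia4 and Pdia6 had log2 fold changes of 0.09, 0.04 and 0.16 with TMM factors, each below 0 with library size alone (−0.13, −0.15 and −0.07). Pdia4 had 26.1 ± 14.4 against 26.9 ± 8.97 CPM (sgRosa against sgNr2f2, mean ± SD, n = 4 and 3), Pdia3 237 ± 70.4 against 253 ± 72.5 CPM and Pdia6 119 ± 28.6 against 133 ± 40.1 CPM. The J-domain co-chaperone genes Dnajb9 and Dnajc3 had 45.4 ± 32.2 against 33.7 ± 9.77 CPM and 115 ± 51.4 against 108 ± 36.7 CPM on the same scale. Dnajb9 had only 25 counts in sgRosa replicate 4, and without that library its log2 fold change went from −0.43 to −0.82 (unadjusted p = 0.0306, adjusted p = 0.398). Sdf2l1, whose product works with the J-domain proteins of the ER lumen, had 6.95 ± 1.98 against 7.65 ± 2.07 CPM. Manf, which encodes a secreted and ER-resident neurotrophic factor, was the member with the least spread among controls, 31.4 ± 1.88 CPM against 31.2 ± 9.85 CPM in sgNr2f2.

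ER-associated degradation moves misfolded proteins out of the ER to the proteasome, and 3 of its 4 members had fold changes above 0. Syvn1 encodes HRD1, the ubiquitin ligase of the main complex, and lies at chr19:6046576-6053712, plus strand. It had 19.2, 11.5, 11.96 and 14.4 CPM across sgRosa replicates 1 to 4, and 31.1, 24.6 and 23.5 across sgNr2f2 replicates 1 to 3. The lowest sgNr2f2 value, 23.5 CPM, exceeded the highest control, 19.2 CPM, and the log2 fold change was 0.89 (SE 0.37, unadjusted p = 0.0356, adjusted p = 0.868). In this gene sgRosa replicate 4 lay within the range of the other controls, and the log2 fold change without it was 0.89. Sel1l, which encodes the partner that stabilises HRD1, had 110.3, 74.7, 80.9 and 102 CPM across sgRosa replicates 1 to 4, and 71.5, 86.9 and 60.8 across sgNr2f2 replicates 1 to 3, and its log2 fold change of −0.33 (SE 0.39, adjusted p = 0.919) was on the other side of 0. The 2 subunits of this complex therefore had point estimates of opposite sign, only that of Syvn1 with an unadjusted p under 0.05; the difference between them was not tested. Edem1, which encodes a lectin-like protein that routes mannose-trimmed glycoproteins to degradation, had 15.6, 20.3, 22.6 and 3.94 CPM across sgRosa replicates 1 to 4, and 34.4, 41.7 and 22.0 across sgNr2f2 replicates 1 to 3. The sgNr2f2 libraries overlapped the controls by 1 pair, 22.0 CPM in sgNr2f2 replicate 3 and 22.6 CPM in sgRosa replicate 3. The log2 fold change was 1.06 (SE 0.55, unadjusted p = 0.0800, adjusted p = 0.868). Herpud1, which encodes a membrane scaffold of the complex, had 158 ± 73.9 CPM in sgRosa (SD, n = 4) and 175 ± 76.5 CPM in sgNr2f2 (SD, n = 3).

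The 8 metabolic targets of ATF4 had 6 fold changes above 0 and none with an unadjusted p under 0.05. Asns, which encodes asparagine synthetase, had 16.1, 10.1, 8.16 and 11.6 CPM across sgRosa replicates 1 to 4, and 15.3, 23.2 and 18.8 across sgNr2f2 replicates 1 to 3. Only sgRosa replicate 1 reached into the sgNr2f2 range, and the log2 fold change was 0.73 (SE 0.39, unadjusted p = 0.0892, adjusted p = 0.868). Mthfd2, a mitochondrial one-carbon enzyme gene, had 5.80, 13.1, 9.92 and 17.7 CPM across sgRosa replicates 1 to 4, and 22.8, 12.5 and 17.96 across sgNr2f2 replicates 1 to 3, with a log2 fold change of 0.61 (SE 0.46, adjusted p = 0.874). Shmt2, the mitochondrial serine hydroxymethyltransferase gene of the same pathway, had 9.01 ± 2.75 against 11.8 ± 2.65 CPM and a log2 fold change of 0.39 (SE 0.41, adjusted p = 0.908). Slc7a11, which encodes the cystine transporter subunit xCT, had 31, 33, 21 and 2 counts across sgRosa replicates 1 to 4, and 0, 10 and 1 across sgNr2f2 replicates 1 to 3. The sgNr2f2 group thus rested on 11 counts in all, and its log2 fold change was −2.54 (SE 1.20, unadjusted p = 0.0590, adjusted p = 0.868). Without sgNr2f2 replicate 2, which held 10 of those counts, the value was −5.05 (unadjusted p = 0.00767, adjusted p = 0.951). Chac1, which encodes a glutathione-degrading enzyme, had 3.35 ± 3.85 against 2.07 ± 1.66 CPM. Its values ran from 0.18 CPM in sgNr2f2 replicate 3, which was 3 counts, to 9.11 CPM in sgRosa replicate 4. Sesn2, which encodes the leucine sensor sestrin 2, had 3.98 ± 1.114 against 4.03 ± 1.73 CPM.

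Psat1 and Phgdh, the serine synthesis genes, are set beside library composition, a choice made after their values had been seen. Psat1, which encodes phosphoserine aminotransferase, had 55.3, 205, 139 and 18.4 CPM across sgRosa replicates 1 to 4, and 244, 60.7 and 191 across sgNr2f2 replicates 1 to 3. Phgdh, which encodes the first enzyme of the pathway, had 11.4, 44.7, 24.3 and 6.66 CPM across sgRosa replicates 1 to 4, and 58.8, 12.2 and 37.6 across sgNr2f2 replicates 1 to 3. For both genes the 3 lowest libraries were sgRosa replicates 4 and 1 and sgNr2f2 replicate 2, which were also the 3 with the lowest oligodendrocyte marker shares (2.69%, 13.6% and 17.9%, against 29.0% to 32.2% in the rest). The part of oligodendrocyte RNA in the group difference of these genes was not tested. The fold changes were 0.66 (SE 0.76) for Psat1 and 0.73 (SE 0.69) for Phgdh on the log2 scale, with adjusted p of 0.916 and 0.899. Leaving out 1 library moved them between 0.26 and 1.25 for Psat1 and between 0.19 and 1.38 for Phgdh, lowest without sgNr2f2 replicate 1 and highest without sgRosa replicate 2. The ratio of Psat1 to Phgdh counts stayed between 2.76 and 5.71 while their levels spanned 13.3-fold and 8.83-fold.

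**Figure D3:**
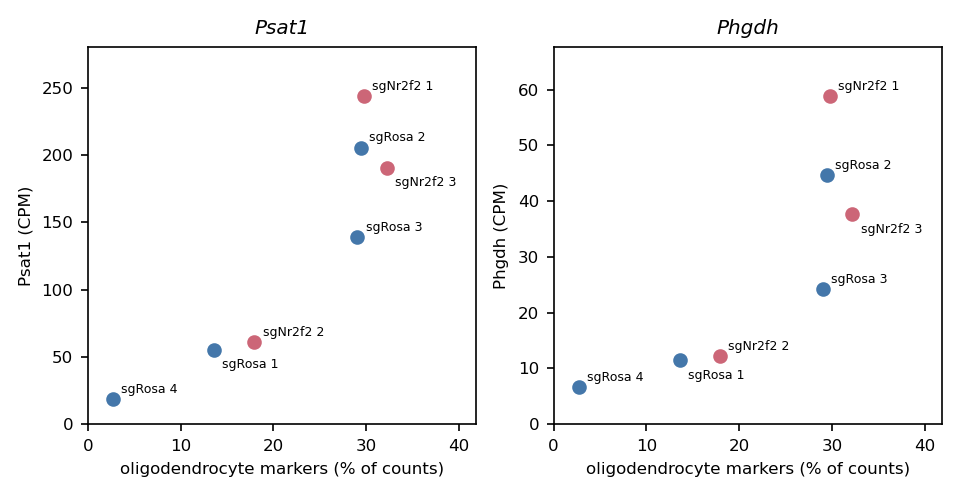
The plot of serine synthesis genes against composition shows CPM of Psat1 and Phgdh (y axes) against the summed share of 10 oligodendrocyte markers (x axis, % of counts), 1 point per library. The 3 libraries with shares under 18% have Psat1 under 61 CPM and Phgdh under 13 CPM, and those with shares of 29% and above have Psat1 from 139 to 244 CPM and Phgdh from 24.3 to 58.8 CPM, in both groups.

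The same 3 libraries had the highest summed share of the members, a sum that the abundant genes carry. The 34 genes summed to 0.495% and 0.535% of counts in sgRosa replicates 1 and 4 and to 0.395% in sgNr2f2 replicate 2, against 0.223% to 0.281% in the other 4 libraries. The group values were 0.393% ± 0.143 in sgRosa (SD, n = 4) and 0.298% ± 0.0880 in sgNr2f2 (SD, n = 3), with an exact two-sided permutation p of 0.314 where the smallest possible is 0.0286. All these shares are of counts without TMM scaling. The TMM factors were 1.39 and 1.17 in sgRosa replicates 1 and 4 and 1.08 in sgNr2f2 replicate 2, against 0.790 to 0.935 in the rest. The gap between these libraries is therefore narrower on the CPM scale. The median member ran differently: the median log2 CPM was lowest in sgRosa replicate 4 (4.27) and next lowest in sgRosa replicate 1 (4.68), highest in sgNr2f2 replicate 2 (5.30), and 4.94 to 5.15 in the rest. Hspa5 was highest in sgRosa replicates 1 and 4 and sgNr2f2 replicate 2 (448, 766 and 714 CPM, against 326 to 411 CPM in the rest). The summed share of the 6 endothelial markers, all detected in every library, was highest in the same 3, at 0.574%, 0.440% and 0.477% against 0.166% to 0.200% of counts. Single markers differed. In sgRosa replicate 4, Ly6c1 (1752 CPM) and Cldn5 (894 CPM) were the highest of the 7 libraries. Pecam1 (42.8 CPM) and Slco1a4 (219 CPM) were the lowest there, and Flt1 and Kdr lay between. Neither composition measure was tested for its part in these levels. Herpud1 tracked Hspa5 from library to library, a pair noticed after its values were seen: Herpud1 had 140.4, 100.2, 125 and 266 CPM across sgRosa replicates 1 to 4, and 156, 259 and 109.7 across sgNr2f2 replicates 1 to 3, and the ratio of Hspa5 to Herpud1 counts ranged only from 2.64 to 3.35 (1.26-fold) while the genes themselves spanned 2.35-fold and 2.65-fold. The median member differed 4.03-fold between its highest and lowest library, beside 5.06-fold for all genes.

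The library sgRosa replicate 4 divided the members much as it divided all genes. Relative to the range of the other 3 controls it was above for 14 members and below for 15 (41.2% and 44.1%, beside 38.9% and 44.2% of all genes). Of the 12 chaperone and folding genes 7 were above and 5 below, of the 8 metabolic targets 3 and 3, of the 5 transcription factor genes 2 and 2, and all 3 sensor genes were below. Among those above, Chac1 was 6.37-fold, Creld2 5.85-fold, Trib3 5.51-fold, Hsp90b1 3.62-fold, Atf4 3.38-fold, Ddit3 3.11-fold and Calr 2.67-fold the mean of the other controls. Of those below, Eif2ak3 and Slc7a11 had 2 counts each in that library, at 0.272 CPM against means of 11.8 and 1.55 CPM in the other controls. Dnajb9 was 17.5-fold lower, Ppp1r15a 13.4-fold, Psat1 7.25-fold, Pdia4 5.23-fold and Edem1 4.95-fold. Of the 8 members with an ERSE, 5 had their highest value over all 7 libraries there, and of the 24 with a promoter window but no ERSE, 5 did, beside 32.6% of all genes tested. The latter 5 included Herpud1, which held an ERSE-II, and Chac1 and Trib3, which held a TGATGNAA core. Members thus went in both directions in that library, at shares near those of all genes. It also held the fewest counts, the highest erythroid marker share and the lowest summed oligodendrocyte marker share. The part of depth and composition in these directions was not tested. Without that library, the log2 fold change was above 0 for 22 of 34 members, with a median of 0.27, beside 47.5% of all genes and a median of −0.03. Without sgNr2f2 replicate 2 instead, 12 members were above 0 and the median was −0.22. Without sgRosa replicate 4 no member passed an adjusted p of 0.05 in edgeR or in DESeq2, where DESeq2 called 2.64% of all genes. At an unadjusted p under 0.05 in edgeR without sgRosa replicate 4, the 5 genes Ern1, Syvn1, Edem1, Asns and Mthfd2 were higher, where 6.41% of all genes were, and the 3 genes Atf3, Dnajb9 and Slc7a11 were lower, where 4.88% were.

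**Figure D4:**
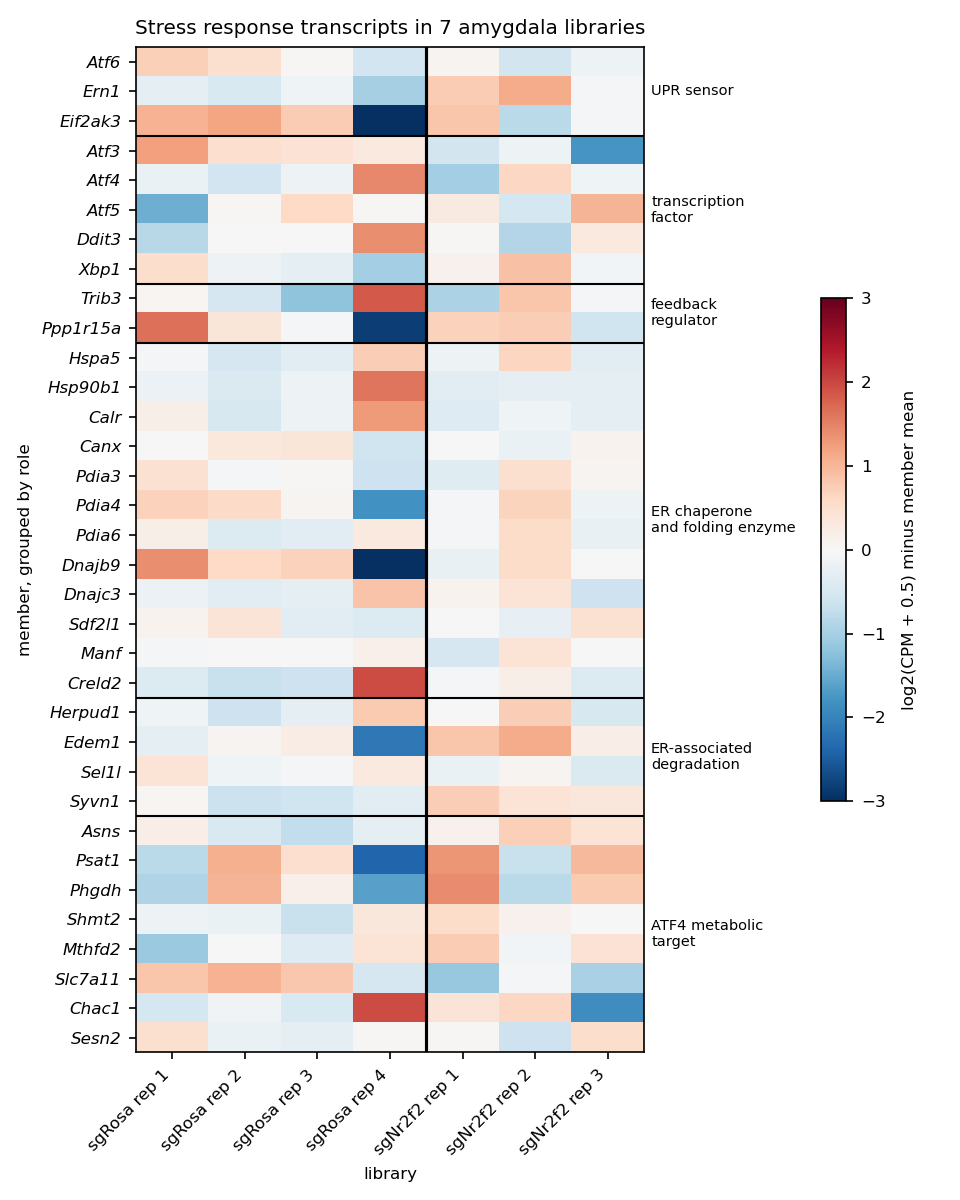
The map of members by library colours log2(CPM + 0.5) minus the mean of each member over the 7 libraries, with members in rows by role and libraries in columns. The column of sgRosa replicate 4 holds both the highest value of 10 members and the lowest value of 13, beside 32.6% and 35.9% of all genes tested.

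Fold changes of members with and without an ERSE covered overlapping ranges. The 8 with the element had 3 log2 fold changes above 0 and a median of −0.10, and the 24 without it had 14 above 0 and a median of 0.07. Without sgRosa replicate 4 both medians were 0.28.

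Levels per kilobase of exon, which allow genes to be compared, spanned the members from the ER chaperones down to the transporter gene Slc7a11. In sgRosa the mean levels were highest for Hsp90b1 (152 ± 120.4 CPM per kb, SD, n = 4), Atf3 (122 ± 40.0), Hspa5 (112 ± 47.3), Canx (111 ± 30.8), Calr (81.4 ± 49.2), Pdia3 (75.4 ± 22.4) and Herpud1 (67.7 ± 31.7), and neighbours in this order differed by less than their SD. The first place of Hsp90b1 rested on sgRosa replicate 4, without which its mean fell from 612 to 369.7 CPM. Without that library the mean of Atf3 went from 262 to 282 CPM and that of Canx from 523 to 588 CPM. In sgNr2f2 the order at the top was Hspa5 (118 ± 44.7 CPM per kb, SD, n = 3), Canx (103 ± 10.6), Hsp90b1 (89.1 ± 1.74) and Pdia3 (80.5 ± 23.1), with Atf3 at 47.7 ± 23.6. The transcription factor genes Atf4 (33.4 ± 25.1) and Xbp1 (32.8 ± 14.1) were at like levels per kb in sgRosa. The sensor genes were near the bottom: Atf6 had 1.68 ± 0.623, Eif2ak3 1.48 ± 0.987 and Ern1 0.176 ± 0.0567 CPM per kb, with only Slc7a11 lower at 0.0886 ± 0.0475. These levels use the union of annotated exons, which overstates the length of transcripts that use fewer of them.

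Among 128 further genes of the same pathways, 123 passed the low-count filter, none passed an adjusted p of 0.05 in edgeR, DESeq2 or limma-voom, and 69 had a log2 fold change above 0 (56.1%, beside 43.8% of all genes). At an unadjusted p under 0.05, 5 were higher in sgNr2f2 and 0 lower (4.07% and 0%, beside 2.18% and 2.82% of all genes). Of the 5, 3 were on the list of ATF4 targets. Slc7a5, which encodes the large neutral amino acid transporter LAT1, had 106, 54.2, 111 and 75.9 CPM across sgRosa replicates 1 to 4, and 153, 339 and 127 across sgNr2f2 replicates 1 to 3. Its groups did not overlap, and the log2 fold change was 1.25 (SE 0.50, unadjusted p = 0.0304, adjusted p = 0.868). Cebpg, which encodes a C/EBP partner of ATF4, had 58.2 ± 16.5 CPM in sgRosa (SD, n = 4) and 112 ± 22.7 CPM in sgNr2f2 (SD, n = 3) without overlap and a log2 fold change of 0.94 (SE 0.41, unadjusted p = 0.0450, adjusted p = 0.868). Cebpb, which encodes another C/EBP factor, had 3.70 ± 2.51 CPM in sgRosa (SD, n = 4) and 15.4 ± 10.2 CPM in sgNr2f2 (SD, n = 3), and its log2 fold change was 2.04 (SE 0.70, unadjusted p = 0.0151, adjusted p = 0.868) with overlapping groups. The other 2 were Bak1, a pro-apoptotic BCL2-family gene whose product also acts at the ER, with a log2 fold change of 0.98 (SE 0.42, unadjusted p = 0.0407, adjusted p = 0.868), and the valyl-tRNA synthetase gene Vars, with 0.92 (SE 0.40, unadjusted p = 0.0451, adjusted p = 0.868).

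The 20 cytosolic tRNA synthetase genes, several of them known ATF4 targets, had 15 fold changes above 0 (75%, beside 43.8% of all genes) and a median of 0.22. Of the 20, 4 were higher without overlap (20%, beside 4.43% of all genes). Of 18 other regulators of the unfolded protein response, 10 were above 0 (55.6%) and 5 were higher without overlap (27.8%, beside 4.43% of all genes): Atf6b, Creb3l1, Tmbim6, Bak1 and Tmed2, named after their values were seen. Other ATF4 targets had 13 of 22 above 0, eIF2 kinases and translation control genes 9 of 16, other ER folding genes 9 of 20 and other degradation and translocation genes 13 of 27. Over all 123, 14 were higher and 3 lower without overlap, where 4.43% and 3.89% of all genes were. In both directions together this was 13.8%, beside 8.32% of all genes. These counts describe the lists, which were chosen with earlier results of these data known, and were not tested.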

How the data were processed

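RNA-seq libraries of cells isolated from mouse amygdala were analysed from the raw read counts per gene symbol that the authors deposited for each of the 7 libraries. Per the submitters' processing notes, the tools were STAR 2.7.5c, featureCounts 2.0.1, fastp 0.23.2, edgeR 3.42.4, MultiQC 1.11 and FastQC 0.11.9, with the mm10 build. Not given in the sources used here are how strand and multi-mapping reads were handled and which gene annotation was used, so reads shared by near-identical or overlapping genes may be split or lost. Of 35976 symbols, 11650 had no count. Groups were taken from the labels. The tests used edgeR 4.0.16 in R 4.3.3 (TMM factors, filterByExpr, quasi-likelihood F test on group, Benjamini-Hochberg adjustment over 14412 genes, threshold 0.05). CPM values use TMM-scaled library sizes, and the depth of 6266897 to 20928677 counts limits the precision of genes with few counts. Single values were compared with exact permutation tests. Alternatives were RLE, upper-quartile and no factors, no or a stricter filter (a mean of at least 50 counts), DESeq2 1.42.0, limma-voom (limma 3.58.1), a replicate block and leaving out each library. The code was tested on simulated data. The members and gene lists were chosen with earlier results of these data known. Values in every library are given for Hspa5, Ddit3, Atf4, Xbp1, the sensors and, per role, every member with an unadjusted p under 0.05 or non-overlapping groups, filled to 3 by smallest p; other pathway genes are named at an unadjusted p under 0.05, at most 4 per list, except Atf6b, Creb3l1, Tmbim6 and Tmed2, which were named after their values were seen. Promoters are from RefSeq (GRCm38.p6), gene coordinates and exon lengths from GENCODE M21 (GRCm38).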

Additional observations from a re-analysis of the deposited data

Results flagged for a closer look

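In the 4 control libraries, 6 members had 1 library far from the other 3, measured as its gap to the nearest other library divided by the whole range and set against Dixon's 95% critical value. That is 17.6% of the 34, beside 18.6% of all 14412 genes tested (14.7% and 16.6% with sgRosa replicate 4 as the library set apart), so the share is near the background. Chance alone sets apart about 1 in 20 such groups, and the groups of 3 sgNr2f2 libraries were not examined. The ratio was 0.836 for Atf3, where sgRosa replicate 1 was high. It was 0.888 for Atf4, 0.929 for Hsp90b1, 0.912 for Dnajc3, 0.96 for Creld2 and 0.928 for Chac1, and in these 5 genes sgRosa replicate 4 was the high library.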

How the results depend on the processing

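No member passed an adjusted p of 0.05 in any of the 17 alternative fits, and 16 of 34 kept their direction in all fits that tested them: Atf6, Ern1, Eif2ak3, Atf3, Xbp1, Hsp90b1, Calr, Edem1, Sel1l, Syvn1, Asns, Psat1, Phgdh, Shmt2, Mthfd2 and Slc7a11. The 18 others, none called, crossed 0 at least once, and the cause was not tested. DESeq2 called 2 genes higher and 5 lower of all tested, and 256 and 116 without sgRosa replicate 4, where edgeR called 0 both times. Members above 0 numbered 10 with library size only, 20 with the replicate block and 12 to 22 when 1 library was left out.
Whether equal replicate numbers pair libraries is not given in the labels. After each gene's group mean was subtracted, same-numbered libraries correlated at −0.20, −0.26 and 0.09. With these values, 0 of 3 sgNr2f2 libraries correlated best with their own number. The subtraction forces values to lie around 0, and with 3 pairs this cannot decide whether libraries were paired. Replicate 4 existed only in sgRosa, so a replicate block gives that library its own term. The group effect of the block fit therefore came from the remaining libraries, much as when sgRosa replicate 4 is left out. In edgeR without that library and without a block, the log2 fold change was 0.50 for Creld2, 0.63 for Trib3 and 0.53 for Chac1. With the replicate block edgeR called 0 genes (before adjustment, p was under 0.05 for 496 higher genes and 417 lower ones), and the log2 fold change became 0.13 for Atf4, 0.10 for Ddit3, 0.58 for Trib3, −0.082 for Pdia3, −0.31 for Pdia4, 0.21 for Dnajc3, 0.48 for Creld2, 0.046 for Chac1 and −0.039 for Sesn2.
With upper-quartile factors it was −0.019 for Hspa5, −0.051 for Pdia4 and −0.061 for Sesn2. With library size only it was −0.15 for Hspa5, −0.13 for Pdia3, −0.15 for Pdia4, −0.071 for Pdia6, −0.13 for Sdf2l1, −0.058 for Herpud1 and −0.34 for Sesn2. Without a filter Sesn2 was at −0.023, and with the stricter filter Hspa5 was at −0.0075 and Sesn2 at −0.038. limma-voom gave 0.056 for Trib3, 0.56 for Ppp1r15a, 0.16 for Dnajb9 and −0.064 for Sesn2.
DESeq2 without sgRosa replicate 4 gave 0.31 for Atf4, 0.15 for Ddit3, 0.68 for Trib3, −0.031 for Pdia3, −0.25 for Pdia4, 0.31 for Dnajc3, 0.065 for Manf, 0.53 for Creld2 and 0.57 for Chac1. limma-voom without it gave 0.13 for Atf4, 0.10 for Ddit3, 0.49 for Trib3, −0.081 for Pdia3, −0.31 for Pdia4, 0.21 for Dnajc3, −0.0082 for Sdf2l1, 0.48 for Creld2 and −0.082 for Sesn2.
When 1 library was left out at a time, values ranged from −0.88 to 0.27 for Atf4, −0.036 to 0.75 for Atf5, −0.75 to 0.13 for Ddit3, −1.04 to 0.63 for Trib3, −0.47 to 0.70 for Ppp1r15a, −0.29 to 0.39 for Hspa5, −0.28 to 0.034 for Canx, −0.13 to 0.28 for Pdia3, −0.29 to 0.27 for Pdia4, −0.11 to 0.32 for Pdia6, −0.82 to 0.015 for Dnajb9, −0.32 to 0.27 for Dnajc3, −0.084 to 0.34 for Sdf2l1, −0.26 to 0.20 for Manf, −0.89 to 0.50 for Creld2, −0.25 to 0.52 for Herpud1, −1.17 to 0.53 for Chac1 and −0.34 to 0.29 for Sesn2. Of the members that kept their direction, values ranged from −0.64 to −0.24 for Atf6, −1.106 to −0.19 for Eif2ak3, 0.15 to 0.79 for Xbp1, −0.96 to −0.042 for Hsp90b1, −0.82 to −0.13 for Calr, 0.26 to 1.25 for Psat1, 0.19 to 1.38 for Phgdh, 0.19 to 0.59 for Shmt2, 0.38 to 0.88 for Mthfd2, −0.47 to −0.21 for Sel1l and −5.05 to −1.97 for Slc7a11. Counts of 2 for Eif2ak3 and Slc7a11 and 6 for Ern1 in sgRosa replicate 4 limit the precision of their values there.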
